A study of Mus musculus with 8 samples.

Results

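Among the chromatin intervals that carried H3K4 methylation in both control libraries of the embryonic mouse cortex, 932 were largely without it in both libraries from cortex with Prdm16 deleted in the Emx1 lineage, and these WT-favoured regions are described here. They were selected on the deposited peak lists of the 4 libraries: the bases under a peak in both WT libraries were taken on chromosomes 1 to 19, and intervals of at least 200 bp were kept where peaks covered under 50% of the bases in each cKO library. Of 60604 such intervals common to the WT libraries, 932 (1.54%) met the rule. The difference between the genotypes is therefore what chose the regions; it is given as a description and was not tested. Each library was made from a lysate of whole cerebral cortex at E15.5, and its chromatin was recovered with an antibody to methylated lysine 4 of histone H3 (H3K4me in the labels), whose catalogue entry is for the monomethylated form. The WT group held 2 libraries of genotype Prdm16 flox/flox, in which the loxP-flanked gene is intact. The cKO group held 2 libraries of genotype Emx1Ires-Cre; Prdm16flox/flox, so both groups carry the floxed alleles and differ by the Cre. Emx1 drives that Cre in the progenitors of the dorsal telencephalon and the cells they give rise to, so cells that enter the cortex from elsewhere, such as interneurons, microglia and vessel cells, keep the gene. The labels do not say how many embryos entered a library or whether the replicates came from separate litters, and the spread between 2 libraries may be technical.

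Monomethylation of H3K4 is written by the KMT2C and KMT2D enzymes at enhancers, the distal elements that set where and when a gene is transcribed, and it flanks active promoters. At the start site of a strongly transcribed gene the trimethylated form usually takes its place, so the monomethyl mark often lies on either side of the start. PRDM16 is a zinc-finger regulator found in radial glia, the dividing cells from which cortical neurons arise, and acts with corepressors and coactivators at enhancers. In a lysate of a whole tissue, loss of a peak in a small cell population and a weaker mark in every cell cannot be told apart.

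At 34 of the 932 regions the interval overlapped a promoter window, the 250 bases before and 50 bases after a gene start in the RefSeq table (GRCm38.p6, the assembly that mm10 represents). These are the regions for which sequence could be shown, and 7 of them are given below, 6 where both WT libraries covered the whole window and neither cKO library covered a base of it, and Hpgds as a promoter poor in CpG. Each line is the 150 bases before the gene start of the window, on the strand of the gene, 5′ to 3′, with every CpG, the dinucleotide at which mouse DNA is methylated, in capitals. The start of a window can lie inside the annotated gene span. The bases shown for Blm and Hpgds lie wholly within that span, and those for Inip partly.
Wnt4: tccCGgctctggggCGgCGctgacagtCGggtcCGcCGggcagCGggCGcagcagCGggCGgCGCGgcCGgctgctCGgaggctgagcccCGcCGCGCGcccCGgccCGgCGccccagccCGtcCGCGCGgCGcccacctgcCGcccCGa
Blm: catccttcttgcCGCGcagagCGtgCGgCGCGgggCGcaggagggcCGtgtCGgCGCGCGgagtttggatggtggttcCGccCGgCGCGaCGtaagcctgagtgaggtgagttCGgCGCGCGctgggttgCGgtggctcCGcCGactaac
Inip: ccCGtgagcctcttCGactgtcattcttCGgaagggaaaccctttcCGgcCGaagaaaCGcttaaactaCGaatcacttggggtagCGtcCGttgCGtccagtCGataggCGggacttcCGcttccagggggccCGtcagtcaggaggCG
Fstl1: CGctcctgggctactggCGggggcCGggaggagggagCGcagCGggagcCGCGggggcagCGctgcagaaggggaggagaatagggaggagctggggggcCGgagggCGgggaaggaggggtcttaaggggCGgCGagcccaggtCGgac
Tppp: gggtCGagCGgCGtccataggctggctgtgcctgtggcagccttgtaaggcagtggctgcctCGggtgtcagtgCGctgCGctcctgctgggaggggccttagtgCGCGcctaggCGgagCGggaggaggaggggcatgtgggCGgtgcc
Ddx47: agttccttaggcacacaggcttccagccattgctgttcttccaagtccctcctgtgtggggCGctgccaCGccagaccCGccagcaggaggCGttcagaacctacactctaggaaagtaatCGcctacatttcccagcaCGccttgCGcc
Hpgds: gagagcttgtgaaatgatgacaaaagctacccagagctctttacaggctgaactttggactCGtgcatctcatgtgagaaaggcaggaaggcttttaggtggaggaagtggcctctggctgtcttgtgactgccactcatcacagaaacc
The 150 bases lie at chr4:137277485-137277634 (plus strand) for Wnt4, chr7:80534999-80535148 (minus) for Blm and chr4:59783856-59784005 (minus) for Inip. Those of Fstl1 are chr16:37776905-37777054 (plus), of Tppp chr13:74009269-74009418 (plus), of Ddx47 chr6:135011462-135011611 (plus) and of Hpgds chr6:65144731-65144880 (minus). The stretch of Wnt4, a secreted Wnt ligand, held 28 CpG and was 86.0% G or C. That of Blm, the RecQ helicase of DNA repair, held 24 CpG, and that of Inip, a subunit of a complex that binds single-stranded DNA, held 15. Fstl1 (a secreted follistatin-like protein) had 13, Tppp (a protein that promotes microtubule assembly) had 11 and Ddx47 (an RNA helicase of ribosome production) had 7. Hpgds, the haematopoietic prostaglandin D synthase, had 1 CpG and 49.3% G or C.

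The peak lists held 65740 to 81447 peaks on these chromosomes and covered 129.1 and 112.9 Mb in WT replicates 1 and 2, and 146.8 and 164.5 Mb in cKO replicates 1 and 2. The read depth is unknown. Both cKO lists covered more bases than both WT lists, so the regions described here run against the balance of the lists, and the part of depth or precipitation in them was not tested. Within a list no 2 peaks lay closer than 1269 bp, so shorter gaps in the mark cannot be seen. Emx1, the cortical gene whose promoter drives the Cre, had 79.0% and 81.2% of its span under peaks in WT and 83.0% and 81.0% in cKO. Pax6, Eomes, Tbr1 and Bcl11b, which mark cortical progenitors and projection neurons, were also covered in every library. In the list of interneuron genes, cells outside the Emx1 lineage, the median covered share was 30.3% and 19.5% in WT and 36.1% and 57.7% in cKO, so both cKO values were higher. Both were also higher in the lists for endothelium and pericytes, for meninges, and for choroid plexus and cortical hem. In the microglia, erythroid, and muscle and liver lists this was not so. In the microglia list the median covered share was at most 1.14% in any library and 4 of 10 genes were at 0 in all, and in the erythroid list 4 of 6 were at 0 in all.

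The regions were short and their peaks were weak. Lengths ran from 200 to 4047 bp with a median of 450 bp, compared with 1077 bp for all intervals common to the WT libraries. Of intervals of 200 bp to under 400 bp, 6.33% (386 of 6096) were WT-favoured, of those from 800 to 1599 bp 0.864%, and of those of 3200 bp or more 1 of 6380. The share thus fell with length in each step of the bar chart of length classes. Fold enrichment is the authors' own value for each peak, over the background of their caller. The peaks over the regions had a median fold of 3.56 in WT replicate 1 and 3.27 in WT replicate 2, where all peaks of those lists had 4.16 and 3.72. In WT replicate 1, 80.7% of the regions lay in a peak under the list's median fold, and in WT replicate 2 85.4%. By their −log10 q the peaks stood at a median percentile of 22.6 and 18.7 within their lists.

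**Figure D1:**
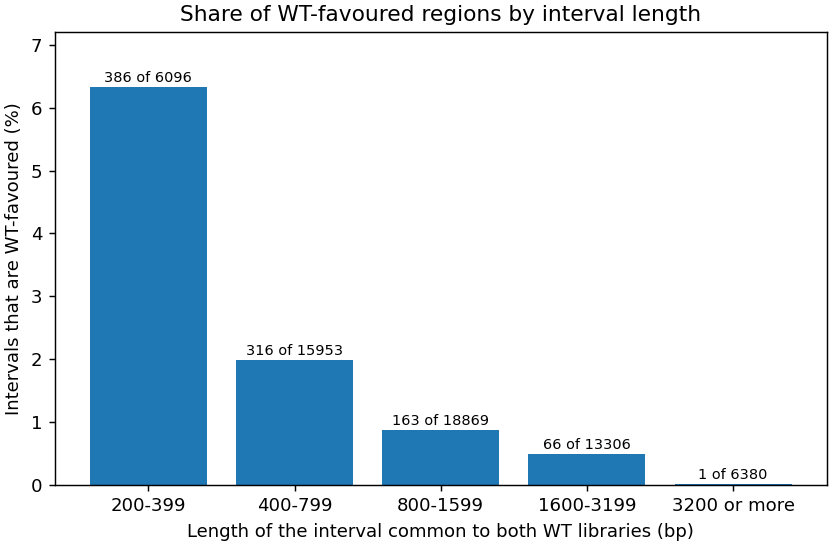
Percentage of the intervals common to both WT libraries that are WT-favoured, by interval length in bp; the numbers above the bars give the regions and the intervals. The share falls from 6.33% of the shortest class to 1 of 6380 in the longest.

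In 572 regions (61.4%) neither cKO library had a single peak base. Another 99 were touched in cKO replicate 1 alone, 98 in cKO replicate 2 alone and 163 in both. Where cKO replicate 1 reached a region, in 262 cases, it covered a median of 36.1% of it, and cKO replicate 2 covered a median of 35.8% in 261. The rule holds both of these shares under 50%, so their likeness is in part set by it. Peaks of cKO replicate 1 ran in over 1 end of the region in 214 cases, over both ends in 4 and lay inside it in 44. For cKO replicate 2 these counts were 219, 4 and 38. The most frequent partial form was therefore a cKO peak that stopped inside a longer WT interval. Regions with some cKO coverage had a median length of 825 bp, against 378.5 bp where cKO had none.

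Around the regions the coverage of the genotypes overlapped. In the 5 kb on either side, peaks covered 9.83% and 8.09% of bases in WT replicates 1 and 2 and 8.44% and 9.84% in cKO replicates 1 and 2, so the genotypes overlapped. Around all intervals common to the WT libraries the same flanks were covered to 12.3% and 9.59% in WT and 15.9% and 19.4% in cKO, where both cKO libraries were higher. The excess of cKO coverage seen around all intervals was thus not seen around the regions. The rule leaves out intervals largely covered by a cKO peak, and such peaks can run into the flanks. The lack of an excess may therefore be in part set by the rule. Around the 572 regions without a cKO peak base, the flanks were covered to 8.55% and 6.95% in WT and 6.32% and 7.24% in cKO, which overlap. At 1 kb before the centre of the regions, 10.6% and 8.37% had a peak in WT and 6.33% and 7.08% in cKO, so both cKO libraries were lower. At a distance of 1 kb after the centre of the regions, 11.3% and 7.94% had a peak in WT and 5.15% and 8.80% in cKO. On that side the genotypes overlapped, as the plot of coverage around region centres shows. Where cKO had no peak base in the region, the nearest cKO peak lay at a median of 6486 bp in replicate 1 and 6474 bp in replicate 2.

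**Figure D2:**
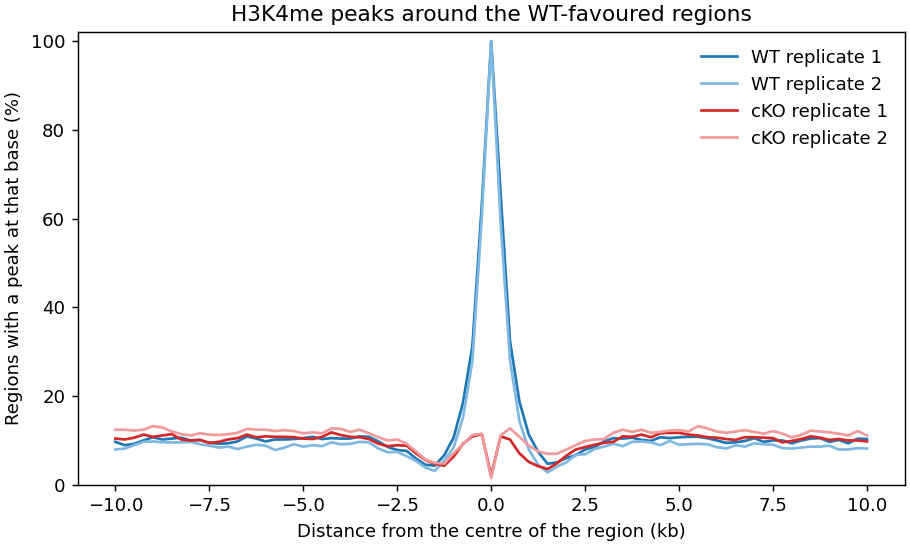
Percentage of the 932 regions with a peak at each distance (kb) from the region's centre, 1 line per library. Both WT lines reach 100.0% at the centre by construction and all 4 lines lie between 7.94% and 12.4% at 10 kb.

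The longest regions were partly covered in cKO. In Dapp1, which encodes an adaptor of B cell signalling, the region of 4047 bp (chr3:137974551-137978597) was under peaks throughout in both WT libraries, and 1601 and 1699 bp of it were covered in cKO replicates 1 and 2. Mmp24, a membrane-bound matrix metalloproteinase of neural cells, held one of 2596 bp (chr2:155788252-155790847) with 615 and 837 bp in cKO. Both were inside coding genes, and the 7 that follow lay outside them. The region of 2742 bp at chr2:8468417-8471158 was 1072076 bp from the nearest coding gene, Celf2, which encodes an RNA-binding splicing regulator, and kept 515 and 566 bp in cKO; its WT peaks had folds of 5.52 and 3.81. The one of 2750 bp at chr9:77620840-77623589, 13143 bp from Klhl31, kept 205 and 885 bp. The one of 2754 bp at chr8:4411129-4413882, 51109 bp from Ccl25, kept 983 and 400 bp. The cKO libraries thus covered under 50% of each of these, as the rule asks, with no fixed order between the replicates. The other 4 lay 94783 bp from Mvb12b, 350663 bp from Mn1, 89869 bp from Fam169b and 78777 bp from Fam43a, with 1084 to 1280 bp under peaks in the cKO libraries.

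**Figure D3:**
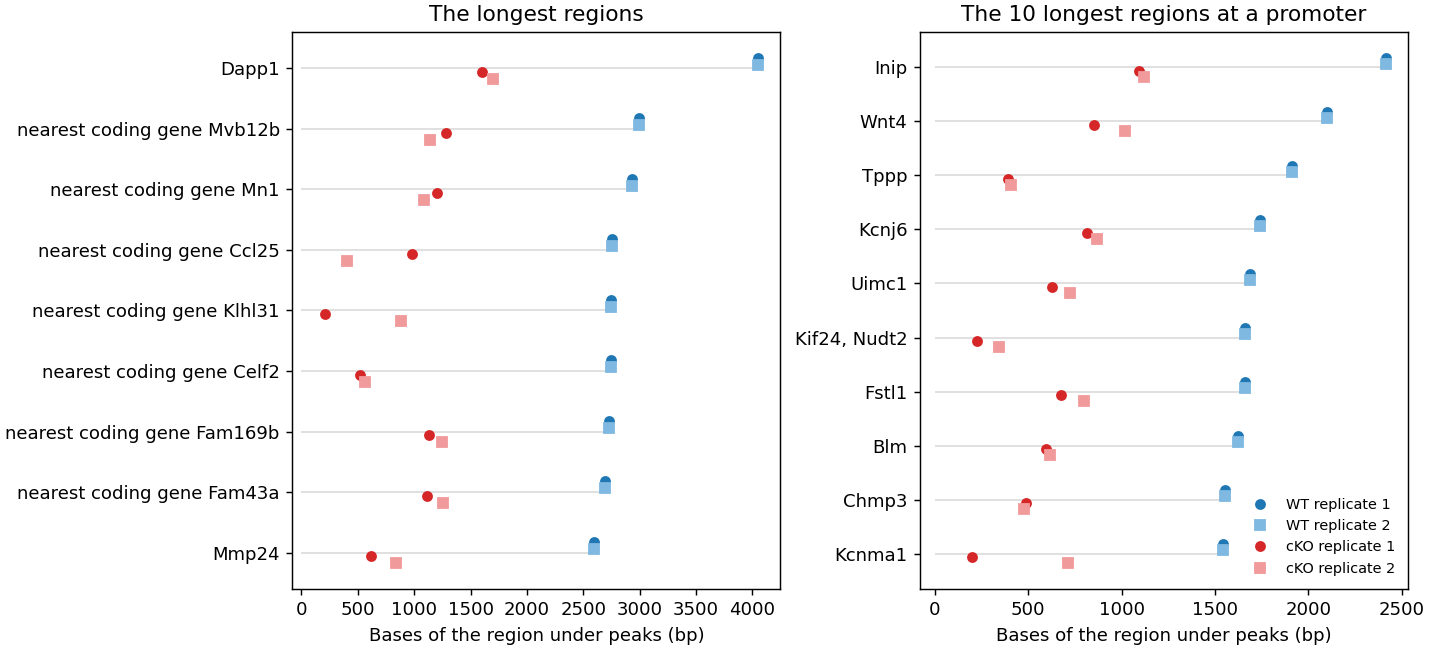
Bases of each region under peaks (bp) in each library, for the longest regions and the 10 longest at a promoter; the grey line spans the length of the region. The WT points sit at the full length by the rule, and the cKO points lie below 50% of it in every region shown.

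Ordered by the lower of the WT folds, the regions without any cKO peak base were led by 5 of 317 to 510 bp. In Ppp2r2b, a regulatory subunit of protein phosphatase 2A in neurons, the WT peaks had folds of 4.14 and 4.46. The region at chr4:149440542-149441010, 8677 bp from the retinoid-binding protein gene Rbp7, had 4.97 and 4.26. That at chr9:91520545-91520897, 131194 bp from Zic4, had 4.17 and 4.23. The others were the region 18795 bp from Ywhaz (4.16 and 4.47) and one in Lrmda (4.16 and 4.11). In WT replicate 2 all 5 lay above the list's median of 3.72; in WT replicate 1 the median was 4.16, and Ppp2r2b lay just below it. Among regions with some cKO coverage the highest was at chr9:60924680-60926941, 44249 bp from Uaca, with WT folds of 5.53 and 5.0. It was followed by regions in Rbms3 (4.82 and 5.29), Thsd4 (4.94 and 4.63), Scfd2 (4.57 and 4.55) and at the start of Ddx47 (4.92 and 4.36). In Rbms3, which encodes an RNA-binding protein, 775 and 762 bp of the 1745 bp stayed under peaks in cKO.

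Promoter regions were few. Of the 5693 WT-common intervals at a promoter window, 34 (0.597%) were WT-favoured. Seen the other way, 3.77% of the WT-favoured regions touched a window, against 9.75% of all WT-common intervals; both shares leave out chromosome 18, whose windows were not used here. In the class of 800 to 1599 bp the order turned, with 9.49% of WT-favoured regions at a window and 7.74% of all intervals. The 34 regions touched 44 windows of 40 genes, of which 28 are protein-coding. At the gene start itself, 43 of 44 windows were under a peak in each WT library, compared with 5 in cKO replicate 1 and 7 in cKO replicate 2. These windows were taken from regions chosen for WT coverage and low cKO coverage, so this contrast is in part set by the rule. At all 7324 windows touched by WT-common intervals, the start was covered in 95.9% and 94.6% in WT and 93.5% and 93.4% in cKO.

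At these promoters peaks covered more bases after the gene start than before it in all 4 libraries. In the 2 kb after the start the WT libraries covered a mean of 866.6 and 734.4 bp and the cKO libraries 446.9 and 478.3 bp. In the 2 kb before it they covered 652.3 and 589.0 bp in WT and 204.2 and 297.6 bp in cKO. At 500 bp before the start, 45.5% of windows were under a peak in each WT library and 11.4% and 18.2% in cKO. At 1 kb after it the shares were 36.4% and 29.5% in WT and 36.4% and 31.8% in cKO, so the genotypes overlapped there. Coverage in cKO was also present further upstream: at 1500 bp before the start, 13.6% and 15.9% of windows had a cKO peak and 9.09% and 6.82% a WT peak. That order was not particular to these windows. Of all 7324 windows at WT-common intervals, 31.2% and 34.8% had a cKO peak there and 28.5% and 26.1% a WT peak. At all windows touched by WT-common intervals, too, more bases were covered after the start (1233 and 1163 bp in WT, 1274 and 1339 bp in cKO) than before it (1045 and 984.6 bp, 1076 and 1133 bp).

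**Figure D4:**
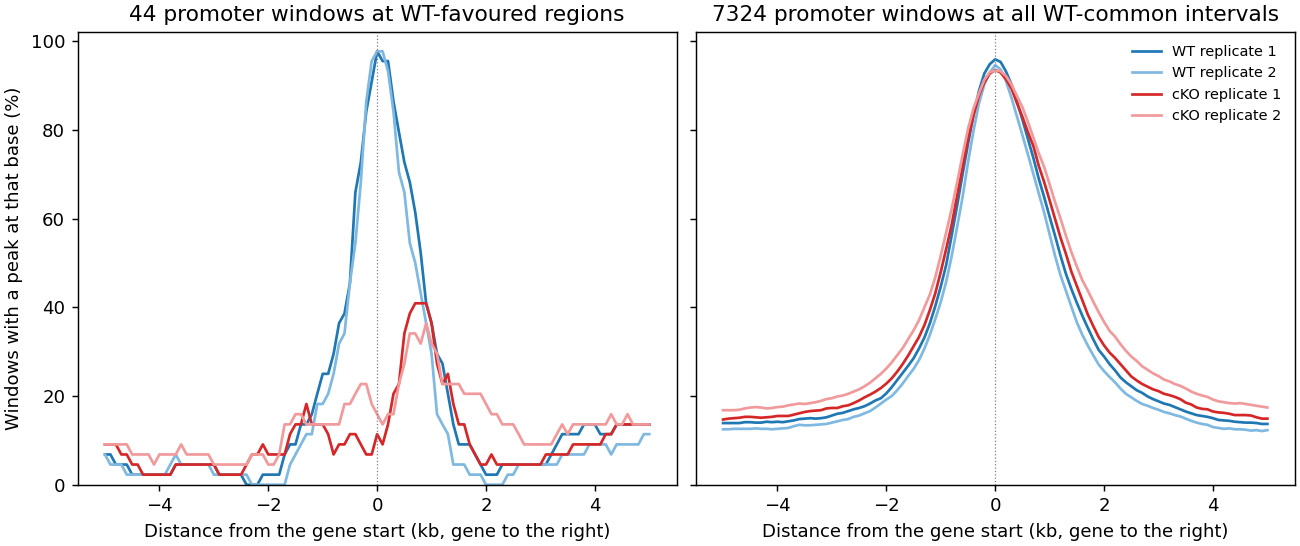
Percentage of promoter windows with a peak at each distance (kb) from the gene start, 1 line per library, for the 44 windows at WT-favoured regions and the 7324 at all WT-common intervals. At the start 97.7% of the 44 windows are covered in each WT library and 11.4% and 15.9% in cKO, while the cKO lines rise after it. The difference at the 44 windows is in part set by the rule that chose their regions.

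At Inip the region of 2414 bp (chr4:59781968-59784381) had 1094 and 1118 bp under peaks in cKO replicates 1 and 2, and the window of the sequence shown above had none. At Wnt4 the region had 2100 bp, of which 854 and 1017 bp were covered in cKO. At Tppp, whose product is abundant in oligodendrocytes, 392 and 409 of 1911 bp were covered. All 3 thus had no cKO peak base at the gene start and some further away. Kif24, a kinesin of the centriole, and Nudt2, a hydrolase of dinucleotide polyphosphates, start in opposite directions within 1 region of 1663 bp, which kept 227 and 343 bp. Uimc1, which binds ubiquitin chains at DNA breaks, kept 629 and 724 of 1690 bp. Blm kept 593 and 617 of 1624 bp. The region at Fstl1 kept 673 and 799 of 1661 bp, that at Chmp3, a subunit of the ESCRT-III membrane complex, 488 and 476 of 1552 bp, and that at Kcnma1, the BK potassium channel, 198 and 713 of 1542 bp. The peak of cKO replicate 2 at Kcnma1 took in 103 bp of the promoter window. At Kcnj6, a G protein-gated potassium channel, the window was under peaks in full in all 4 libraries, and the cKO peaks ended elsewhere within the region (817 and 870 of 1743 bp).

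At 7 of the 34 promoter regions cKO had no peak base. Fhl2, a LIM-domain cofactor, had 1059 and 1026 bp under peaks in WT within 2 kb of a start inside its span (chr1:43163961), and none in cKO. For Hpgds these values were 603 and 388 bp in WT and none in cKO. Six3os1, the transcript opposite the forebrain gene Six3, had 1227 and 484 bp in WT and none in cKO; the peaks carry no strand, so the start is given by position only. These 3 were named after their values were seen. The starts used for Fhl2 and Hpgds lie inside the annotated spans of these genes. Over the whole span of Fhl2, WT peaks covered 9.26 and 9.72 kb and cKO peaks 8.55 and 8.21 kb. Over that of Hpgds, WT peaks covered 1.19 and 1.47 kb and cKO peaks 1.49 and 1.32 kb, which overlap. Both spans take in bases of the regions that the rule chose.

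The windows resembled those at other marked intervals in G and C content and more often had a high CpG content. Over the 44 windows the median G and C content was 59.2%, against 58.7% for 7317 distinct windows at WT-common intervals and 53.0% for all 31365. A CpG count of at least 0.6 times that expected from base content was found in 65.9%, compared with 50.1% and 36.4%, and in 65.8% of the windows at cKO-favoured regions, defined by the mirrored rule. The CCAAT box, a common element of promoters without a TATA box, was present on either strand in 36.4% of the 44 windows and 37.3% of all windows. The E-box CANNTG, the site of bHLH factors, was in 59.1% against 72.2%, and its form CAGCTG in 13.6% against 16.3%; the second is contained in the first. The octamer ATGCAAAT, the site of POU factors, was in 3 windows (6.82%) against 1.75% of all. The motif TTGGCA of NFI factors (9.09% against 14.1%), ACAAT of SOX factors (25% against 30.5%), TAATTA of homeodomain factors (2.27% against 5.27%) and TGANTCA of AP-1 (2.27% against 7.85%) were no more frequent than in all windows. Against the 7317 windows at WT-common intervals, the order turned for ACAAT (22.8% there) and CCAAT (34.6% there) and held for the other motifs. These counts describe letters in a window, and no difference between them was tested.

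Away from promoters, the regions lay further from genes than other marked intervals. Spans of coding genes were touched by 55.3% of the regions (95% Wilson interval 52.1 to 58.4, for counting error only) and by 62.7% of all WT-common intervals. More than 50 kb from any coding gene were 27.4% of the regions and 18.5% of all intervals. Short intervals are more distal, so the shares were also compared within length classes. Under 400 bp, 32.9% of WT-favoured and 21.6% of all intervals were over 50 kb away, and from 400 to 799 bp 25% and 20%. From 800 to 1599 bp the shares were close, 20.9% and 19.5%, and from 1600 to 3199 bp they were 22.7% and 16.4%. The 1 region of 3200 bp or more lay within a coding gene, while 13.4% of all such intervals were over 50 kb away. The distance to the nearest gene start had a median of 33902 bp against 21849 bp. Across the 19 chromosomes, between 0.826% (chromosome 19) and 2.17% (chromosome 3) of WT-common intervals were WT-favoured, so every chromosome contributed. None of the regions overlapped a miRNA hairpin.

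Among coding genes 3 held 4 regions each, Alk, Lrmda and Robo2, and 8 held 3 each. Of these 8, Patj and Ptprt are described with them because their regions were the longest in total. Alk, Lrmda, Robo2, Ptprt and Patj held 37, 44, 32, 37 and 17 WT-common intervals. By the mirrored rule, Alk, Lrmda and Ptprt also held 4 cKO-favoured regions each, and Robo2 held 2. Alk, a receptor tyrosine kinase of developing neurons, spans 735.7 kb and held regions of 325 to 1393 bp, which together make up 3133 bp; cKO replicate 1 reached 1 of them and cKO replicate 2 reached 2. Over the whole Alk span WT peaks covered 69.1 and 50.5 kb and cKO peaks 55.7 and 68.5 kb, so the genotypes overlapped over the gene. Robo2, a receptor for the axon repellent Slit, held 4 regions of 234 to 297 bp with no cKO peak base, while over its whole span WT peaks covered 56.1 and 50.9 kb and cKO peaks 56.2 and 48.9 kb. For Lrmda, a gene required for melanocyte differentiation, WT peaks covered 76.2 and 64.9 kb and cKO peaks 75.7 and 90.1 kb. For Ptprt, a receptor phosphatase of synapses, WT peaks covered 61.8 and 52.9 kb and cKO peaks 67.2 and 67.1 kb. Over the whole gene, coverage thus overlapped between genotypes in Alk, Robo2 and Lrmda and was higher in both cKO libraries in Ptprt.

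Patj, a scaffold of the Crumbs complex at the apical junctions of epithelial cells, differed from these. Over its span WT peaks covered 31.4 and 27.4 kb and cKO peaks 23.2 and 20.7 kb, so both cKO values were lower, and it held no cKO-favoured region by the mirrored rule. Its regions were of 2341 bp (chr4:98555063-98557403), with 463 bp under peaks in cKO replicate 1 and none in replicate 2, of 1436 bp (chr4:98660354-98661789), with none in either, and of 617 bp (chr4:98549246-98549862), with none and 256 bp. The bases of the 3 regions are part of the span's difference and were chosen by it.

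**Figure D5:**
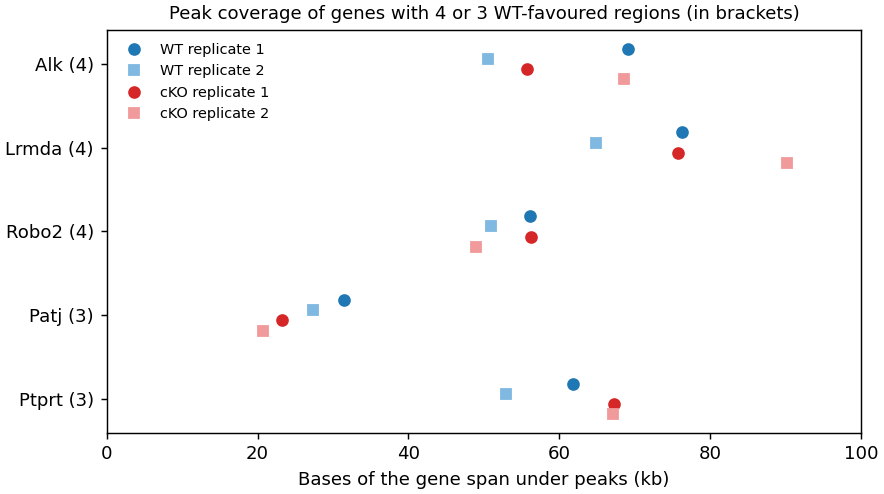
Bases of the gene span under peaks (kb) in each library for the 3 coding genes with 4 WT-favoured regions and, of the 8 with 3, those whose regions are longest in total; the number is in brackets. Of the 5 genes shown, only in Patj do both cKO points lie below both WT points.

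The lists of genes below were read against all 20661 coding loci, a locus being the span of the gene and 10 kb on either side: 2.83% of loci held a WT-favoured region, and of the 42687 WT-common intervals in any locus 1.34% were WT-favoured. Of the radial glia list 3 of 25 loci held one, with 5 of 173 intervals (2.89%). In Id4, an inhibitor of bHLH factors, a region of 1559 bp (chr13:48263737-48265295) kept 481 and 535 bp in cKO, in a gene of 4.91 kb of which WT peaks covered 2.31 and 1.56 kb and cKO peaks 1.21 and 0.570 kb. The bases of that region lie within the gene, so they are part of the gene's difference and were chosen by the rule. Zbtb20, a zinc-finger repressor of progenitors, held 3 regions, while Notch2 held 1. Over the whole span of Zbtb20, WT peaks covered 88.9 and 82.8 kb and cKO peaks 84.9 and 95 kb, which overlap. The intermediate progenitor list held no region in 18 loci and 65 intervals.

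Of the upper layer list 4 of 17 loci held a region (6 of 191 intervals, 3.14%), of the deep layer list 4 of 18 (6 of 320, 1.88%) and of the newborn neuron list 1 of 18 (2 of 237, 0.844%). Foxp2, a transcription factor of corticothalamic neurons, had 3. The longest, of 1619 bp (chr6:14924364-14925982), kept 599 bp in cKO replicate 1 and none in replicate 2. Over the Foxp2 span, WT peaks covered 32.1 and 31.4 kb and cKO peaks 32.0 and 25.1 kb. Unc5d, a netrin receptor on neurons that leave the subventricular zone, belongs to the upper layer and the newborn neuron lists and held 2 regions without a cKO peak base, the longer of 940 bp (chr8:28775035-28775974) with WT folds of 3.74 and 3.67. Cux1 and Cux2, the homeodomain factors of upper layers, held 2 and 1 regions, of 204 to 360 bp. Bcl11a (831 bp), Zfpm2 (302 bp) and Cdh13 (479 bp) held 1 each, as did Epha3 (229 bp).

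The axon guidance and migration list had the most loci with a region, 10 of 33, but it also had the most intervals, and 14 of its 584 (2.40%) were WT-favoured. Unc5b, a netrin receptor, held the longest, of 2347 bp (chr10:60793191-60795537), which kept 1012 and 1134 bp in cKO and had WT folds of 4.63 and 4.33. The ligands Slit3 and Sema3a, the receptors Unc5a, Epha3 and Epha7, and the reelin pathway genes Dab1 and Lrp8 held 1 each, and Robo2 its 4. In the list for synapse and ion channels, 5 of 29 loci held a region (6 of 274 intervals, 2.19%). Dlg2, a scaffold of the postsynaptic density, had one of 2230 bp with 784 and 339 bp under peaks in cKO, and the glutamate receptor gene Grik2 had 2. Among the signalling lists, Notch genes had 2 of 21 loci (Notch2 and Maml2), BMP and TGF-beta genes 2 of 26 (Id4 and Smad1) and Wnt genes 1 of 21 (Apc). Of their intervals, 2 of 114 (1.75%), 2 of 123 (1.63%) and 1 of 129 (0.775%) were WT-favoured, against 1.34% in all coding loci. At Maml2, a coactivator of Notch, 811 bp had no cKO peak base. Smad1, the transducer of BMP signals, kept 716 and 683 of 1530 bp. The list of PRDM genes and histone methylation enzymes held no region in 28 loci and 151 intervals, so none lay at Prdm16 itself.

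Among genes of cells outside the Emx1 lineage, the share of intervals that were WT-favoured was above the 1.34% of all coding loci in the interneuron and microglia lists, each from 1 gene. Of 17 interneuron loci 1 held any, Erbb4, the neuregulin receptor, with regions of 514 and 347 bp, which are 2 of the list's 38 intervals (5.26%). Of 10 microglia loci 1 held any, Cx3cr1, the fractalkine receptor of microglia, with 2 of the list's 11 intervals (18.2%). Within the gene, WT peaks covered 0.704 and 0.884 kb and cKO peaks none. These values include the bases of a region of 659 bp that the rule chose. The median covered share of the microglia genes was 1.14% and 0% in WT and 0.915% and 0.913% in cKO, which overlap, and the part of cell number in the Cx3cr1 values was not tested. No region was held by the endothelial and pericyte (12 loci, 27 intervals), meningeal (11, 21), erythroid (6, 6), muscle and liver (10, 7) and housekeeping (12, 30) lists. With so few intervals, holding none is near the 1.34% of all coding loci. Egfr, in the list for oligodendrocyte precursors and astrocytes, held 2 of 44 intervals, Wnt3a of the cortical hem 1 of 28, Ebf1 and Ebf3 of Cajal-Retzius cells 2 of 95, Rb1 of the cell cycle list 1 of 55 and Ppargc1a of the brown fat list 1 of 46.

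The number of regions depends on where the rule is drawn and on which lists are used. Just inside the limit lay the regions in Kcnj6 (46.87% and 49.91% covered in cKO replicates 1 and 2), in Mmp16 (49.73% and 0%) and 30763 bp from Khdrbs1 (38.54% and 49.7%). Just outside it lay intervals 13699 bp from Adam30 (50.15% and 22.68%), 5976 bp from Gnai2 (50.15% and 0%) and 228830 bp from Lyzl1 (43.28% and 50.19%). Leaving out 1 library relaxes the rule, and the number was then 2638 without WT replicate 1, 5281 without WT replicate 2, 3456 without cKO replicate 1 and 2628 without cKO replicate 2. The mirrored rule, intervals common to the cKO libraries and under 50% covered in each WT library, found 8455 of 71404 (11.8%). With the lists cut to equal covered length the balance turned, to 6932 WT-favoured and 1338 cKO-favoured regions, and with equal numbers of peaks the counts were 2099 and 4725. Of the 932 intervals, 440 still met the limits of 50% in all 4 libraries with equal length, 674 with equal numbers, 408 with stricter peaks and 279 in all of these lists. The last share was 47.6% for regions longer than 1000 bp and 26.9% for those under 400 bp. Id4, Blm, Inip, Fstl1, Tppp, Ddx47, Unc5b and Smad1 held such regions, and those of Wnt4, Patj and Kcnma1 were not among them. Also not among them were the promoter regions of Kcnj6, Uimc1 and Kif24 with Nudt2. The same holds for the regions of Dlg2, Maml2 and Ppargc1a and for the longest of Foxp2, Erbb4 and Egfr.

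Compared with the cKO-favoured regions, the WT-favoured ones were shorter, with a median of 450 bp against 590 bp. Windows at promoters were touched by 7.01% of cKO-favoured and 3.77% of WT-favoured regions, and 20.7% against 27.4% lay over 50 kb from a coding gene. No test of these differences was run, since regions are not replicates.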

How the data were processed

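H3K4me ChIP-seq of embryonic cortex was deposited as 1 list of broad peaks per library, 2 WT and 2 cKO; the 4 input libraries were not analysed here. Native chromatin was cut with micrococcal nuclease, per the labels' protocols. FastQC, cutadapt, Bowtie2 2.2.8, MACS2 2.1.1 and the mm10 build were used, per the submitters' processing notes; caller options: not given in the sources used here. The authors' lists hold positions, a score (not used), fold enrichment as a ratio, and −log10 p and q values.

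Peaks on chromosomes 1 to 19 were merged per list, intersected and measured with pandas 2.3.3 under Python 3.11.15 with numpy 2.4.6, and the same 932 regions came from bedtools 2.31.1. The interval code was tested on 50 simulated sets with 0 mismatches. Positions are 1-based; gene spans, promoter windows and sequences come from RefSeq tables on GRCm38.p6 that give no exons. Each region's fold is that of the peak with the largest overlap.

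No test was run. The members, the 23 gene lists and the rule for regions named were chosen with earlier results of these data known. That rule took the 10 longest regions, 5 of highest WT fold with and 5 without cKO bases, the longest per list, the 5 genes with most regions (ties by total region length), the 10 longest at a promoter and those nearest the limit; other list members and promoters were named after their values were seen. Of the 10 longest, 1 is not reported here.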

Additional observations from a re-analysis of the deposited data

How the results depend on the processing

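No paired analysis was possible because no result comes from a test. WT-favoured and cKO-favoured counts were 1904 and 15424 with up to 75% coverage allowed in the other genotype, 572 and 5445 with none allowed, 414 and 4975 with a minimum of 500 bp, 2099 and 4725 with equal numbers of peaks, and 6932 and 1338 with equal covered length; stricter peaks (−log10 q of at least 2) gave 619 WT-favoured regions. With 1 library left out they ranged from 2628 to 5281 and from 12714 to 22505. The share of regions without a cKO peak base was 90.4% with under 25% allowed, 30.0% with under 75%, 100% with none, 36.7% from 500 bp, 68.0% with stricter peaks, 82.1% with equal numbers, 95.8% with equal length, and 59.7% to 64.9% with 1 library left out. The share touching a coding gene was 51.4% with no cKO base allowed, 61.1% from 500 bp, 59.6% with equal length, 64.5% for genes of any kind, and 52.8% to 56.7% with 1 library left out. Median length in these settings was 386 bp (25%), 605 bp (75%), 378 bp (none), 859 bp (from 500 bp), 516 bp (equal numbers), 657 bp (equal length) and 506 to 588 bp (1 library left out). The cause of these shifts was not tested, beyond what each limit sets by its construction. Joining peaks within 500 bp changed none of the 5 values, since no list has gaps that short; joining within 2000 bp, an alternative chosen after seeing the data like the count over fixed intervals, gave 852 regions. Of the 63 regions that the naming rule took, all kept a WT mean coverage above the cKO mean with equal numbers of peaks and with equal covered length (joining within 500 bp or leaving out 1 library cannot change this, by the rule's construction); with stricter peaks 58 did, 3 stood at 0 in both, and those of Erbb4 (−29.9 percentage points) and Kcnj6 (−48.4) reversed. Without read counts, the depth behind a missing peak is unknown.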

Other observations

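Most regions stood alone: the median gap to the next one on a chromosome was 1431423 bp, and 57 of 913 gaps were of 100 kb or less. The densest stretch of 1 Mb held 6, at chr5:98936028-99678010. It held 2 regions in Prkg2, a cyclic GMP-dependent protein kinase (317 and 702 bp), 2 in Rasgef1b, an exchange factor for Ras-like proteins (785 and 638 bp), and 2 outside coding genes (208 and 1325 bp). Only the last had a cKO peak base, 465 bp in replicate 1 and 0 in replicate 2. This stretch was picked as the densest of all, so its count is a description.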
